A study of Mus musculus with 2 samples.

Results

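Ageing of haematopoietic stem cells was read through 10 genes, Ehd3, Alcam, Aldh1a1, Enpp5, Gda, Cd38, Neo1, Clu, Nupr1 and Sult1a1, which were taken by symbol from the 23961 gene symbols in the files. Each had a single row per library whose status was marked OK in the files. The cells were sorted from bone marrow of untreated C57BL/6 mice, with 1 library labelled Per2-deficient (Per2def) and 1 labelled wild-type (Per2wt). The protein made from Per2 represses the activators of the circadian clock. Mice of both genotypes were kept under a light and dark cycle before collection. The sources used here do not give the Per2 allele, the sort markers, the age of the mice, the hour of collection or how many mice gave each library. Both libraries were made from poly(A) RNA. Because each genotype has 1 library, no difference could be checked on replicates or tested, and each one is between these libraries.

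Blood stem cells of old mice are more numerous than those of young mice, but they rebuild blood less well and lean towards platelets and myeloid cells. The 10 genes are linked to that state because surveys of mouse stem cells have reported more of their RNA with age. They do not form a pathway. Alcam, Neo1, Cd38 and Enpp5 encode proteins of the cell surface, Ehd3 a protein of endosome recycling, Clu a secreted chaperone, Nupr1 a stress-induced nuclear protein, and Aldh1a1, Gda and Sult1a1 enzymes of the cytosol.

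Values are FPKM, the number of sequenced fragments of a gene corrected for its transcript length and for library size, so levels can be set side by side between genes. Each difference in brackets is on the log2(FPKM + 1) scale, Per2wt subtracted from Per2def, and comes out too small for genes of low level. The files give no read totals, and absolute depth is unknown. Among 3232 genes under 0.5 FPKM in both libraries 255 had FPKM in Per2def and Per2wt at the commonest ratio, 0.805. Equal fragment numbers give that ratio when the Per2def library is 1.24 times as deep. Per2 itself stood at 6.16 FPKM in the library labelled Per2def and at 1.96 FPKM in the library labelled Per2wt, 3.13-fold higher (1.27), which goes against the label if deficiency means less RNA. Whether the deficient allele still makes RNA was not tested, and every direction given here is between the library labelled Per2def and the library labelled Per2wt.

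The ageing-linked genes were low, and most stood at much the same level in both libraries, with Ehd3 as the exception. Of the 10, 6 reached 1 FPKM in either library or both, here called measured, and Neo1, Clu, Nupr1 and Sult1a1 stayed under it in both. Past 2-fold was Ehd3 alone, higher in Per2def, and 0 of the 6 were lower by that much. Of all 11121 measured genes, 1.25% passed 2-fold upwards and 0.998% passed it downwards. Small and predicted RNAs made up most of those, and without them the shares were 0.249% and 0.150% of 10028 genes. Ehd3 passed the 1 FPKM filter only through the library in which it was high. Of the 6 measured members 5 were higher and 1 lower in Per2def, beside 62.0% higher and 38.0% lower among all measured genes (62.2% and 37.8% without small and predicted RNAs). The median difference was 0.22 over the 6 and 0.05 over all measured genes. Of all 10 members 7 were higher and 3 lower, with a median of 0.18, beside 61.5% higher and 38.4% lower among the 16972 genes above 0 in either library. A share of 7 in 10 is thus near the background, and the members sum to 18.1 FPKM in Per2def and 13.2 FPKM in Per2wt.

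The order of the levels was much the same in both libraries apart from Ehd3. From high to low it ran Aldh1a1, Alcam, Ehd3, Enpp5, Cd38, Gda, Sult1a1, Clu, Nupr1 and Neo1 in Per2def, and Aldh1a1, Alcam, Enpp5, Cd38, Gda, Sult1a1, Nupr1, Clu, Ehd3 and Neo1 in Per2wt. Without replicates no pair of neighbours in either order can be said to differ. Closest were Ehd3 and Enpp5 in Per2def, apart by a ratio of 1.04, and Nupr1 and Clu in Per2wt, apart by a ratio of 1.00.

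**Figure D1:**
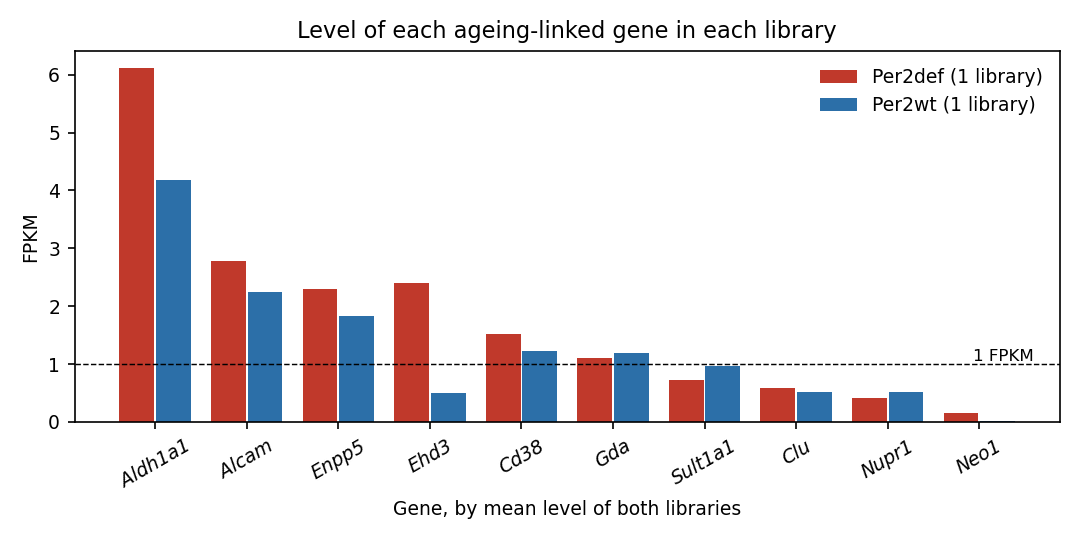
FPKM of each of the 10 genes (vertical axis, linear) in the Per2def library (red, left bar) and the Per2wt library (blue, right bar), ordered along the horizontal axis by mean level. Aldh1a1 was highest in both libraries, and Ehd3 was the gene whose bars differed by over 2-fold on the log2(FPKM + 1) scale.

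Ehd3 encodes an ATPase with an EH domain that acts in the return of membrane cargo from endosomes to the cell surface. The gene (ENSMUSG00000024065.8, chromosome 17, 73804134 to 73832094, plus strand, GRCm38) stood at 2.40 FPKM in Per2def and at 0.504 FPKM in Per2wt, 4.75-fold higher as a plain ratio, with a difference of 1.17. Of the 1247 genes with a mean of 1 to 2 FPKM, small and predicted RNAs aside, none other had a difference as high, and the middle 95% of them ran from −0.43 to 0.58. Its longest protein-coding transcript shared no stretch of 50 bases with transcripts of another gene, and its other transcripts were not examined. By their levels in both libraries the 3 genes nearest to Ehd3 were Cox7a1, at 2.37 FPKM in Per2def and 0.536 FPKM in Per2wt, Cybb, at 1.99 FPKM in Per2def and 0.651 FPKM in Per2wt, and Rab17, at 2.20 FPKM in Per2def and 0.796 FPKM in Per2wt. That likeness is a distance over 2 libraries and carries no more than a shared level and difference.

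Aldh1a1 was the most abundant of the 10 genes and had the second widest difference on the log2(FPKM + 1) scale. It encodes a dehydrogenase that turns retinaldehyde into retinoic acid and that detoxifies other aldehydes. The gene (ENSMUSG00000053279.8, chromosome 19, 20492715 to 20643465, plus strand) stood at 6.11 FPKM in Per2def and 4.18 FPKM in Per2wt, 1.46-fold higher (0.46). Of 4346 genes with a mean of 5 to 20 FPKM, 83 (1.91%, Aldh1a1 included) had a difference at least as high. Aldh1a7, a close mouse relative on the same chromosome, was also higher, at 3.48 FPKM in Per2def and 1.68 FPKM in Per2wt (0.74). Some 6.54% of the 50-base windows of the Aldh1a1 transcript also occur in another gene's transcripts, mostly those of Aldh1a7, so the split of reads between the pair is uncertain. Their sum was 9.59 FPKM in Per2def and 5.86 FPKM in Per2wt, 1.64-fold higher (0.63) and in the same direction as Aldh1a1 alone.

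The upstream sequences of Ehd3 and Aldh1a1 are shown because these genes had the widest differences on the log2(FPKM + 1) scale. By plain ratio Neo1 was wider (8.59). The motifs were searched because PER2 protein acts on activators that bind E-boxes. Upstream windows of 250 bases before the annotated start were taken from RefSeq (GRCm38.p6) for 8 of the 10 genes, with 9 windows in all since Aldh1a1 has a pair of starts. The RefSeq starts of Ehd3, Alcam, Gda, Cd38, Nupr1 and Sult1a1 lie inside the genes as GENCODE draws them. So does the downstream start of Aldh1a1. Sequences run 5′ to 3′ on the plus strand, and capitals mark a match to a searched motif.
Ehd3, chr17:73804591-73804840: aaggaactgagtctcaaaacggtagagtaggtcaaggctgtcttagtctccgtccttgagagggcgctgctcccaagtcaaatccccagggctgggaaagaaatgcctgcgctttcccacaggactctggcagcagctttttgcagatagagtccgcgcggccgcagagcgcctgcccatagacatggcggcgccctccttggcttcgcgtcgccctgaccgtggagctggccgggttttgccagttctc
Aldh1a1, chr19:20492333-20492582: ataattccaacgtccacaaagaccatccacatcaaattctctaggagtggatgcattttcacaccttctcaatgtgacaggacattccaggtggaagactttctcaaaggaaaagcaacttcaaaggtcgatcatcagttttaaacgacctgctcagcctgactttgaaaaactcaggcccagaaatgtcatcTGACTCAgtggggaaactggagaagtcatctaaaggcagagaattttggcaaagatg
A set of 3 motifs was searched on both strands, the E-box CACGTG bound by the clock activators, the D-box TTATGTAA of clock output factors and the AP-1 site TGANTCA of FOS and JUN. No match overlapped another in these windows. The Ehd3 window held no match, had 60.0% G and C and contained 16 CG pairs, while the upstream Aldh1a1 window had 42.8% G and C, 3 CG pairs and an AP-1 match 57 bases before the start. The only other match among the 9 windows was an E-box 225 bases before the RefSeq start of Nupr1, inside the gene as GENCODE draws it. Over all 32851 promoter windows of this length 6.02% held the E-box, 0.819% the D-box and 6.75% the AP-1 letters. A match is a description of letters and not a bound site.

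The relatives of Ehd3 differed by less. Ehd1 stood at 8.83 FPKM in Per2def and 6.93 FPKM in Per2wt (0.31), Ehd2 at 0.467 FPKM in Per2def and 0.336 FPKM in Per2wt (0.14), and Ehd4 at 8.47 FPKM in Per2def and 9.66 FPKM in Per2wt (−0.17). Ehd3 thus made up 11.9% of the summed FPKM of the 4 EHD genes in Per2def and 2.89% in Per2wt. Among all measured genes 62.0% were higher, with a median of 0.05. Of 16 measured genes of the EHD family and its recycling endosome partners, Ehd3 aside, 9 were higher and 7 lower, with the same median to 2 decimals. Rab11fip2, an adaptor of the recycling GTPase RAB11, was the lowest of them, at 1.36 FPKM in Per2def and 1.84 FPKM in Per2wt (−0.27). Vps35, of the retromer coat, stood at 15.8 FPKM in Per2def and 14.6 FPKM in Per2wt (0.11).

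Of the other retinoid genes the directions were mixed, as among all measured genes, of which 62.0% were higher. Among 12 measured genes of the retinaldehyde dehydrogenase and retinoid list, Aldh1a1 aside, 7 were higher and 5 lower. The median was 0.09, beside 0.05 over all measured genes. Rdh10, which makes retinaldehyde, stood at 2.33 FPKM in Per2def and 1.67 FPKM in Per2wt (0.32), and Dhrs3, which turns it back into retinol, at 10.1 FPKM in Per2def and 7.90 FPKM in Per2wt (0.32). The retinoic acid receptor gene Rarg went the other way, at 1.27 FPKM in Per2def and 1.95 FPKM in Per2wt (−0.38). Aldh2, the mitochondrial aldehyde dehydrogenase and the most abundant of the list, stood at 95.1 FPKM in Per2def and 99.2 FPKM in Per2wt (−0.06). Aldh1a2, Stra6, Lrat, Crabp1 and Cyp26a1 were listed at 0 in both libraries.

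**Figure D2:**
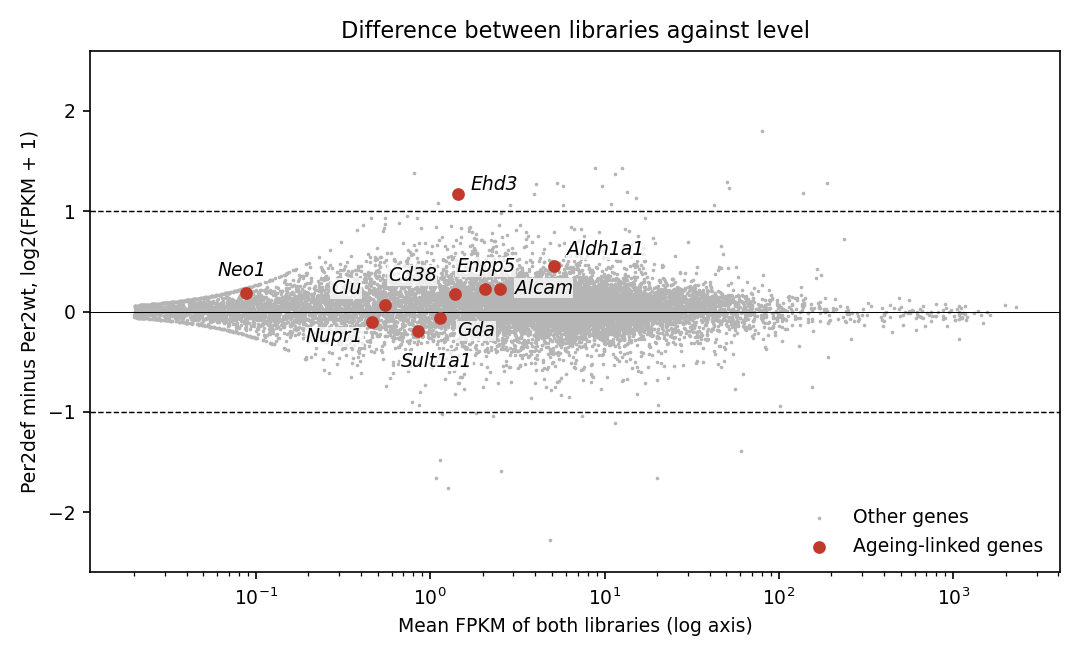
Difference between libraries (vertical axis, Per2def minus Per2wt in log2(FPKM + 1)) against mean FPKM of both libraries (horizontal axis, log scale) for the 10 genes (red, named) and all other genes from 0.02 FPKM, small and predicted RNAs left out (grey). Dashed lines mark 2-fold, 4 genes lie outside the vertical axis at 2.6, and Ehd3 at 1.17 is the only red point past 2-fold.

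The surface genes that reached 1 FPKM stood higher in Per2def by a like, small amount. Alcam encodes an adhesion molecule of the immunoglobulin superfamily, also called CD166, that binds itself and CD6. The gene (ENSMUSG00000022636.13, chromosome 16, 52248996 to 52454074, minus strand) stood at 2.78 FPKM in Per2def and 2.24 FPKM in Per2wt, 1.24-fold higher (0.22). Enpp5, a membrane protein of the ectonucleotide pyrophosphatase and phosphodiesterase family (ENSMUSG00000023960.13, chromosome 17, 44078813 to 44086567, plus strand), stood at 2.30 FPKM in Per2def and 1.83 FPKM in Per2wt, 1.26-fold higher (0.22). Cd38, an ectoenzyme that consumes NAD (ENSMUSG00000029084.5, chromosome 5, 43868553 to 43912375, plus strand), stood at 1.53 FPKM in Per2def and 1.23 FPKM in Per2wt, 1.24-fold higher (0.18). Differences of this size were common at these levels. Of 2757 genes with a mean of 2 to 5 FPKM, 17.9% had a difference at least as high as Alcam and 17.2% one at least as high as Enpp5, and of the 1247 genes at 1 to 2 FPKM 28.8% had one at least as high as Cd38.

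Neo1 was near the bottom of what these libraries show. It encodes neogenin, a receptor for netrins and repulsive guidance molecules. The gene (ENSMUSG00000032340.8, chromosome 9, 58874687 to 59036441, minus strand) stood at 0.158 FPKM in Per2def and 0.0184 FPKM in Per2wt. The plain ratio was 8.59, the widest of the 10, but it rests on a gap of 0.140 FPKM and on a difference of 0.19 on the log2 scale. Of 1397 genes with a mean of 0.05 to 0.2 FPKM 9.95% had a difference at least as high. The added 1 FPKM caps the difference at such levels, and caps it more the lower the gene. This share therefore cannot show whether the gap of Neo1 is unusual. An antisense gene, Gm47271, overlaps the span of Neo1 on the other strand in GENCODE, and overlap of their exons was not examined. Although the library kit marks strand, the setting used in counting is not stated. Whether reads of Gm47271 add to the Neo1 value is therefore not known.

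No measured partner of the surface proteins passed 2-fold, and few measured genes of any kind did. Without small and predicted RNAs the shares were 0.249% upwards and 0.150% downwards. The ezrin, radixin and moesin genes, which encode linkers of membrane proteins to actin, stood at 21.0, 21.9 and 37.9 FPKM in Per2def (Ezr, Rdx and Msn in that order) and at 18.3, 19.5 and 33.2 FPKM in Per2wt. Adam17, a protease that sheds surface proteins, went the other way, at 8.47 FPKM in Per2def and 10.3 FPKM in Per2wt (−0.26). The netrin gene Ntn4 stood at 1.32 FPKM in Per2def and 0.730 FPKM in Per2wt (0.42), and Arhgef12, a RhoA exchange factor, at 2.42 FPKM in Per2def and 1.64 FPKM in Per2wt (0.37). The netrin gene Ntn1 stood at 0.114 FPKM in Per2def and 0.0787 FPKM in Per2wt, and Rgma was listed at 0 in both. The lists had medians of 0.16 over 5 measured ALCAM partners and 0.11 over 5 measured genes of the neogenin list, with 4 higher and 1 lower in each, beside 62.0% higher among all measured genes. Ntn4 reached 1 FPKM in Per2def alone, so the filter fixed its direction.

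In NAD metabolism, the substrate side of CD38, 8 of 10 measured genes were higher and 2 lower, with a median of 0.08. Over all measured genes 62.0% were higher and the median was 0.05. Nadk2, the mitochondrial NAD kinase, had the widest difference, at 18.2 FPKM in Per2def and 12.6 FPKM in Per2wt (0.50). Nmnat3, which completes NAD in mitochondria, stood at 6.20 FPKM in Per2def and 4.39 FPKM in Per2wt (0.42), and its nuclear relative Nmnat1 at 2.57 FPKM in Per2def and 1.97 FPKM in Per2wt (0.26). Parp1, a consumer of NAD in DNA repair, stood at 39.3 FPKM in Per2def and 37.6 FPKM in Per2wt (0.06). Bst1, the closest relative of Cd38, was at 0.0493 FPKM in Per2def and listed at 0 in Per2wt. Of the other ENPP genes only Enpp4 was measured at 1 FPKM, at 2.73 FPKM in Per2def and 2.22 FPKM in Per2wt (0.21), beside 0.22 for Enpp5.

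Gda, Nupr1 and Sult1a1 were the genes with lower FPKM in Per2def, each by a small amount. Gda encodes guanine deaminase, which turns guanine into xanthine. The gene (ENSMUSG00000058624.13, chromosome 19, 21391307 to 21473445, minus strand) stood at 1.10 FPKM in Per2def and 1.19 FPKM in Per2wt, 1.08-fold lower (−0.06). Sult1a1 encodes a sulfotransferase of phenols (ENSMUSG00000030711.16, chromosome 7, 126672865 to 126676432, minus strand) and stood at 0.722 FPKM in Per2def and 0.971 FPKM in Per2wt, 1.35-fold lower (−0.20). Of 1856 genes with a mean of 0.2 to 1 FPKM 10.5% had a difference at least as low. Some 7.72% of the 50-base windows of Sult1a1 occur in another gene's transcripts, mostly Gm6939, and 61 of its bases overlap Sgf29 on the other strand. Sgf29, found in the files under its older name Ccdc101, stood at 10.9 FPKM in Per2def and 11.0 FPKM in Per2wt.

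Nupr1 encodes a small chromatin protein that is induced by stress. The gene (ENSMUSG00000030717.9, chromosome 7, 126623249 to 126630861, minus strand) lies 42.0 kb from Sult1a1 and stood at 0.415 FPKM in Per2def and 0.516 FPKM in Per2wt, 1.24-fold lower (−0.10). Its ratio of 0.805 was the commonest ratio of low genes, the value that equal fragment numbers in both libraries give. Dividing by it gives ratios of fragment numbers in Per2def over Per2wt that are not corrected for depth. On that scale Sult1a1 came to 0.923, Nupr1 to 1.00, Gda to 1.15, Clu to 1.42, Alcam and Cd38 to 1.54, Enpp5 to 1.57, Aldh1a1 to 1.81, Ehd3 to 5.90 and Neo1 to 10.7. Gda, lower in Per2def by FPKM, is thus above 1 in fragment numbers. Clu encodes clusterin, an extracellular chaperone also called apolipoprotein J. The gene (ENSMUSG00000022037.15, chromosome 14, 65968483 to 65981547, plus strand) stood at 0.590 FPKM in Per2def and 0.516 FPKM in Per2wt, 1.14-fold higher (0.07), and 47.8% of the 1856 genes at its level had a difference at least as high.

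The pathways of these genes held both directions, as all measured genes did. In purine salvage and breakdown 9 of 16 measured genes were higher and 7 lower, with a median of 0.02, or of −0.04 under scaling by the median of ratios. Lower ones were the GMP reductase genes Gmpr, at 3.77 FPKM in Per2def and 5.00 FPKM in Per2wt (−0.33), and Gmpr2, at 7.98 FPKM in Per2def and 10.3 FPKM in Per2wt (−0.33). Gmps, which makes GMP, was higher, at 11.0 FPKM in Per2def and 8.87 FPKM in Per2wt (0.28). Of 7 measured genes of sulfation and sulfate donor synthesis 5 were higher (median 0.06), beside 62.0% of all measured genes. The highest difference was that of the nucleotide sugar family transporter gene Slc35b3, which carries the sulfate donor. Slc35b3 stood at 3.78 FPKM in Per2def and 2.66 FPKM in Per2wt (0.38). Sult1b1, Sult1c1, Sult1c2, Sult1d1, Sult1e1 and Sult2a1, of the sulfotransferase family, were listed at 0 in both libraries.

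The list around clusterin had a median of −0.03 over 5 measured genes, 2 higher and 3 lower. Apoe, another apolipoprotein gene, stood at 42.7 FPKM in Per2def and 55.8 FPKM in Per2wt (−0.38), and Sorl1, a sorting receptor gene, was 1.48-fold higher in Per2def than in Per2wt (0.36). Vldlr, a lipoprotein receptor gene, stood at 1.93 FPKM in Per2def and 2.49 FPKM in Per2wt (−0.25). Of 14 measured stress response genes around Nupr1 11 were higher and 3 lower, with a median of 0.07, beside 62.0% higher among all measured genes. The list included Asns, asparagine synthetase, at 16.9 FPKM in Per2def and 11.2 FPKM in Per2wt (0.55), and Sesn2, a stress-induced inhibitor of mTORC1, at 2.503 FPKM in Per2def and 1.55 FPKM in Per2wt (0.46). Ppp1r15a, the phosphatase subunit that ends this response, stood lower, at 11.6 FPKM in Per2def and 16.5 FPKM in Per2wt (−0.47). The widest difference on the list was Lcn2 (0.80), which is also a neutrophil granule gene.

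**Figure D3:**
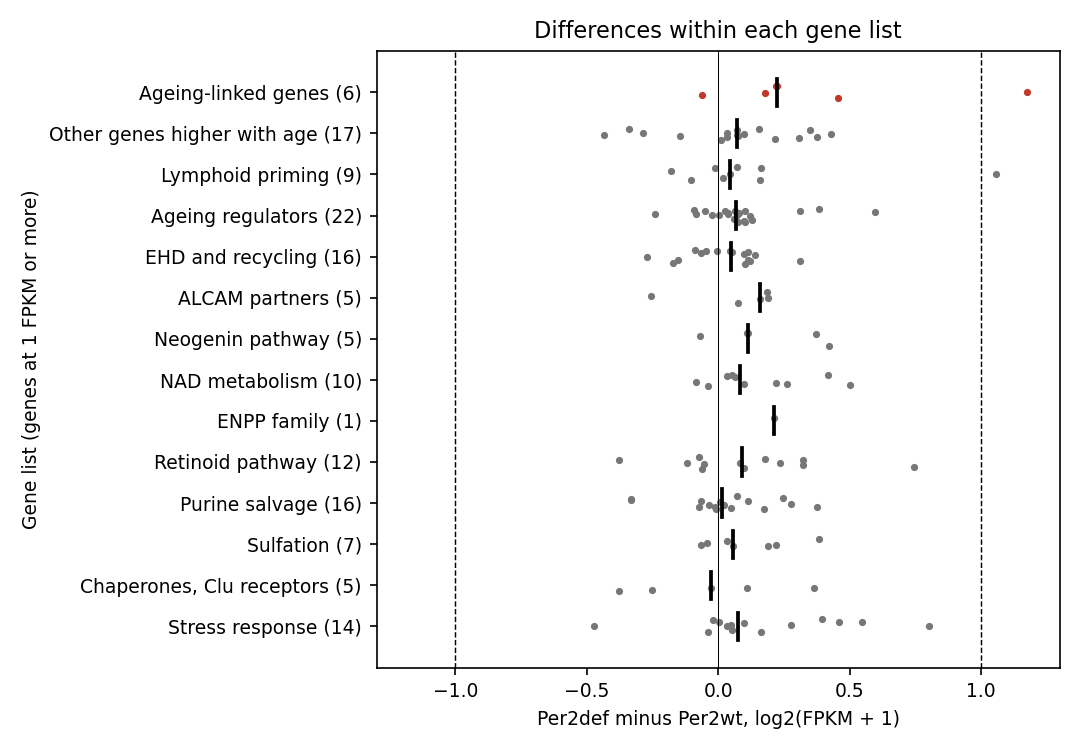
Difference between libraries (horizontal axis, Per2def minus Per2wt in log2(FPKM + 1)) of each gene at 1 FPKM or more, with 1 row per gene list, the number of genes in brackets and the median as a black bar. The ageing-linked genes (red) have a median of 0.22 over 6 genes, with Ehd3 at 1.17 as their highest point, and Ly6d at 1.06 is the other point past 2-fold.

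Other measured genes reported as higher in old mouse stem cells stayed under 2-fold, as nearly all measured genes did. Of 37 genes so reported 17 were measured at 1 FPKM, of which 13 were higher and 4 lower. Their median was 0.07 against 0.05 over all genes, and none passed 2-fold. Among all measured genes 62.0% were higher, and 0.249% passed 2-fold upwards without small and predicted RNAs. Of the 17, 2 reached 1 FPKM in Per2def alone and 1 in Per2wt alone. Cpne8, which encodes a copine, stood at 18.1 FPKM in Per2def and 13.2 FPKM in Per2wt (0.43), and the AMP deaminase gene Ampd3 at 3.46 FPKM in Per2def and 2.43 FPKM in Per2wt (0.38). The adaptor gene Fyb stood at 8.44 FPKM in Per2def and 6.41 FPKM in Per2wt (0.35). Zg16 had the lowest difference, at 1.38 FPKM in Per2def and 2.22 FPKM in Per2wt (−0.44), followed by the P-selectin gene Selp, at 1.496 FPKM in Per2def and 2.15 FPKM in Per2wt (−0.34). The metallothionein genes Mt1 and Mt2, the most abundant of the list, differed by 0.07 and 0.03. The platelet factor gene Vwf, which marks platelet-biased stem cells in mice, stood at 1.28 FPKM in Per2def and 1.17 FPKM in Per2wt (0.07).

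Lymphoid priming genes, which are lower in old mouse stem cells, gave a median of 0.04 over 9 measured genes. Of the 9, 6 were higher and 3 lower, beside 62.0% higher among all measured genes. Their median was −0.0057 when the libraries were scaled by the median of ratios. Ly6d, a marker of early lymphoid progenitors, passed 2-fold, at 4.25 FPKM in Per2def and 1.52 FPKM in Per2wt (1.06). Dntt, the terminal transferase of antigen receptor joining, was lower, at 60.6 FPKM in Per2def and 68.7 FPKM in Per2wt (−0.18), and Sox4 stood at 58.4 FPKM in Per2def and 57.8 FPKM in Per2wt (0.02). Of 22 measured regulators studied in stem cell ageing and senescence 17 were higher and 5 lower, with a median of 0.07. Among all measured genes 62.0% were higher, with a median of 0.05. Of these regulators Cdkn1c was measured through Per2def alone. Lmna, the lamin A gene, stood at 8.43 FPKM in Per2def and 5.24 FPKM in Per2wt (0.60), and Cdkn1c, the p57 inhibitor of the cell cycle, at 1.07 FPKM in Per2def and 0.589 FPKM in Per2wt (0.38). Foxo3, a transcription factor gene that maintains stem cells, stood at 15.2 FPKM in Per2def and 18.1 FPKM in Per2wt (−0.24). Cdkn2a, which encodes the senescence inhibitor p16, and its neighbour Cdkn2b were listed at 0 in both libraries. Cdc42, a GTPase gene studied in aged stem cells, stood at 63.3 FPKM in Per2def and 64.4 FPKM in Per2wt (−0.02).

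The label of the cells was set against marker genes. Stem cell markers were present. Kit stood at 43.6 FPKM in Per2def and 42.7 FPKM in Per2wt, and Cd34 at 83.9 FPKM in Per2def and 90.5 FPKM in Per2wt. Of the 16 on the list 13 were measured, among them Hlf at 15.8 FPKM in Per2def and 20.3 FPKM in Per2wt. The others, Slamf1, Fgd5 and Hoxb5, were under 1 FPKM in both. Progenitor markers were present as well, with Flt3 at 51.4 FPKM in Per2def and 48.8 FPKM in Per2wt. Cd48, another of them, stood at 22.6 FPKM in Per2def and 16.0 FPKM in Per2wt (0.47). What share of each library came from stem cells is not known, and fewer cells of a type cannot be told apart from less RNA per cell. The 16 stem cell markers summed to 226 FPKM in Per2def and 242 FPKM in Per2wt. Of the 13 measured ones 9 were lower, beside 38.0% of all measured genes.

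Marker sums of several other cell types were higher in Per2def. Among all measured genes 62.0% were higher. Neutrophil markers summed to 1017 FPKM in Per2def and 544 FPKM in Per2wt, with 12 of 13 measured ones higher. Erythroid markers summed to 590 FPKM in Per2def and 403 FPKM in Per2wt, with 9 of 10 higher. T cell markers, of cells that can express Cd38, summed to 25.5 FPKM in Per2def and 18.5 FPKM in Per2wt, with 6 of 7 higher. Of those 7, Cd3g (1.41 FPKM in Per2def and 0.266 FPKM in Per2wt) and Cd4 (1.07 FPKM in Per2def and 0.542 FPKM in Per2wt) reached 1 FPKM in Per2def alone, so the filter fixed their direction. Both myeloid and red cell markers thus stood higher in Per2def, most of all the neutrophil ones. Natural killer and innate lymphoid markers summed to 37.1 FPKM in Per2def and 28.8 FPKM in Per2wt, with 3 of 3 measured ones higher out of 12 listed. Most of both sums was Nkg7, at 28.4 FPKM in Per2def and 23.7 FPKM in Per2wt. Of all 12, 8 were higher and 4 lower, beside 61.5% higher among genes above 0 in either library. Plasma cell markers summed to 27.2 FPKM in Per2def and 20.5 FPKM in Per2wt, with 1 of 3 higher. That 1 was Igj, the joining chain gene of antibodies, at 13.3 FPKM in Per2def and 4.32 FPKM in Per2wt. Monocyte and macrophage markers summed to 23.2 FPKM in Per2def and 13.6 FPKM in Per2wt, with 4 of 4 measured ones higher out of 13 found. Most of that gap was Ly6c2, a gene of inflammatory monocytes, at 15.0 FPKM in Per2def and 6.60 FPKM in Per2wt. Mast cell and basophil markers summed to 11.2 FPKM in Per2def and 7.09 FPKM in Per2wt, with 3 of 3 measured ones higher out of 8 listed. Tpsb2 and Cma1 were at 0. Retnlg, a neutrophil marker, and Alas2, an erythroid marker, reached 1 FPKM in Per2wt alone. The part of these cells in the differences of the ageing-linked genes was not tested.

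Other marker lists were nearly level or lower, where 62.0% of all measured genes were higher and 38.0% lower. Megakaryocyte and platelet markers, of cells that express Clu, summed to 55.3 FPKM in Per2def and 65.8 FPKM in Per2wt, with 4 of 11 measured ones higher, 7 lower and Gp6 at 0. Thbs1, the thrombospondin gene, made up much of that gap, at 0.996 FPKM in Per2def and 8.70 FPKM in Per2wt (−2.28), and it and Treml1 reached 1 FPKM in Per2wt alone. Stromal markers other than Alcam, which stromal cells express, summed to 18.4 FPKM in Per2def and 17.2 FPKM in Per2wt, with Pdgfra, Col3a1 and Sp7 at 0. Endothelial markers summed to 18.7 FPKM in Per2def and 16.9 FPKM in Per2wt, with 3 of 5 higher. In none of these lists was the sum in Per2def above that in Per2wt by a ratio as large as for neutrophil markers. B cell markers summed to 6.94 FPKM in Per2def and 7.49 FPKM in Per2wt, with Igll1 at 0, and dendritic cell markers to 49.1 FPKM in Per2def and 51.0 FPKM in Per2wt. Multipotent progenitor markers summed to 167 FPKM in Per2def and 164 FPKM in Per2wt, with 4 of 7 higher.

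**Figure D4:**
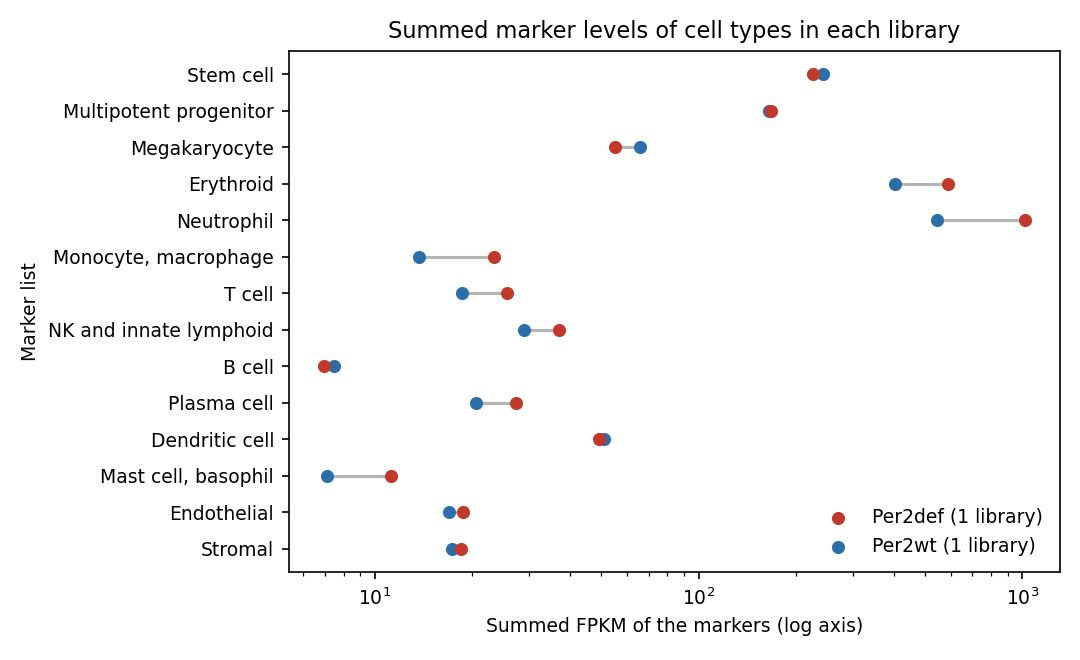
Summed FPKM (horizontal axis, log scale) of the markers of each cell type in the Per2def library (red) and the Per2wt library (blue), with a grey line joining the pair. Neutrophil markers were at 1017 and 544 FPKM and erythroid markers at 590 and 403 FPKM, while stem cell markers were at 226 and 242 FPKM, in each case Per2def before Per2wt.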

How the data were processed

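RNA of sorted bone marrow stem cells was sequenced in 2 libraries, grouped by genotype label. The deposited values are FPKM per gene, a unit named in the file headers. The submitters' processing notes name Cufflinks, CASAVA 1.8, TopHat, Bowtie2, GRCm38 and mm10. The sources used here state no other version, annotation or strand setting.

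Of 24487 rows per file, 9 flagged for too much data and 27 with symbols turned into dates were left out, and rows sharing a symbol were summed, leaving 23961 symbols. A gene counted as measured from 1 FPKM in either library, and 2-fold on the log2(FPKM + 1) scale stood in for a call. Small and predicted RNAs were told by symbol and RefSeq biotype. Identifiers, overlaps and 50-base windows come from GENCODE M21 (GRCm38), the windows from the longest protein-coding transcript of each gene. Python 3.11.15 and pandas 2.3.3 were used.

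The members, gene lists, named-gene rule and alternatives were chosen with earlier results of these data known. Of 385 list symbols 381 were found. The rule names the members, Per2, up to 4 genes of the widest difference and the 2 most abundant genes of each list, and the 3 genes nearest to Ehd3. Bst1, Ehd2, Fgd5, Hoxb5, Ntn1, Rgma, Sgf29, Slamf1, Treml1, Vwf and genes listed at 0 fall outside it. Their choice followed sight of the values, as did the level bands and the sums of gene families. Alternatives were other scalings, pseudocounts, floors, fold thresholds, the mean, no small or predicted RNAs, and the highest row per symbol.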

Additional observations from a re-analysis of the deposited data

How the results depend on the processing

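Each of the 10 genes kept the sign of its difference under all 6 alternatives of scaling, pseudocount and row choice that were run on it. A pseudocount cannot turn a sign, and with a single row per gene the row choice changes no value, so only the scalings could. They divided Per2def by 1.04 (median of ratios), 1.01 (fixed total) and 1.00 (upper quartile), which is little. Of the 60 values from all these alternatives 53 moved by less than 0.1 on the log2 scale, those of the row choice by construction. That limit was chosen because no replicate spread exists. The other 7 came from the pseudocount. With 0.1 FPKM in place of 1 FPKM the differences were 2.05 for Ehd3, 0.29 for Cd38, 1.12 for Neo1, −0.26 for Nupr1 and −0.38 for Sult1a1, and the median over all 10 was 0.29. With 0.5 FPKM they were 1.53 for Ehd3 and 0.34 for Neo1. Of the members 1 was at least 2-fold higher, and 0 were with a floor of 5 FPKM, which leaves Aldh1a1 alone and a median of 0.46, or at a 4-fold threshold. The mean of the 6 measured members was 0.37. Over all genes 217 were at least 2-fold higher with a pseudocount of 0.1 FPKM, 290 higher and 189 lower passed 1.5-fold, 87 higher passed 4-fold, and 25 higher and 15 lower passed 2-fold without small and predicted RNAs. Medians of other lists moved for the ENPP family with no floor (0.0025) and, with a floor of 5 FPKM, for the retinoid list (−0.067) and the clusterin list (−0.133). The sign of a list median turned for the retinoid list there, for the lymphoid (−0.0057) and purine (−0.038) lists under scaling by the median of ratios, and for the clusterin list with no floor (0.010). The scalings shifted the median of all genes by at most 0.05. No paired analysis was possible because each genotype has 1 library. Leaving out a library was not possible for the same reason. Neo1, Clu, Nupr1 and Sult1a1 were under 1 FPKM in both libraries and Ehd3 in Per2wt. With absolute depth unknown, the counting error of such low values cannot be given.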
